A study of Mus musculus with 32 samples.

Results

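Ptprc and Ptprj encode a pair of transmembrane tyrosine phosphatases, and the open chromatin around both genes was described here from ATAC-seq peaks of Kupffer cells (the macrophages that reside in the liver) and of liver endothelial cells. In ATAC-seq a transposase cuts and tags accessible DNA. The peaks were those with centres in a window of mouse genome build mm9 around each gene, on chromosome 1 between 139900001 and 140120000 for Ptprc and on chromosome 2 between 90240001 and 90450000 for Ptprj. These windows held 108 of the 229137 peaks in the deposited lists, 35 at Ptprc and 73 at Ptprj. Peaks with an overlap of 1 bp or more between the lists are called shared, and the others Kupffer-only or endothelial-only.

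The series comprised 32 libraries from male C57BL/6J mice on normal chow. Each of the 8 groups had 4 libraries: Kupffer cells and endothelial cells, from mice with a double knockout of REV-ERB a/b in adult hepatocytes and from WT mice, at ZT22 and at ZT10. REV-ERBs are repressors of the circadian clock, and ZT counts hours from lights on. The way in which the knockout was made is not given in the sources used here. The knockout concerned hepatocytes, whereas the cells profiled were Kupffer and endothelial cells. The files are 1 list of peak positions per cell type over all its libraries, so Kupffer cells were compared with endothelial cells, and genotype and time were not analysed here. The lists give no heights and no library of origin. Their depth is therefore unknown, none of the values below has a replicate, and no p-value was computed. A peak that is missing from a list was not called there, which does not show that the site was closed.

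The product of Ptprc, CD45, is an abundant surface protein of nucleated blood cells, macrophages included, and is the usual marker that separates them from endothelium. Its cytoplasmic phosphatase domain removes the inhibitory phosphate from Src-family kinases, which sets how strongly immune receptors signal. The product of Ptprj, CD148 or DEP-1, has an outer part of fibronectin type III repeats. It acts on Src-family kinases in blood cells, and in mouse macrophages its role overlaps with that of CD45. Ptprj is also known from endothelial cells, where its product dephosphorylates the VEGF receptor Kdr, so that of the pair only Ptprc is a marker of leukocytes alone.

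No sequence of mm9 was used here, so bases under the peaks are not printed. The starts of the genes can be shown from RefSeq on another build, GRCm38.p6, and the outermost ones differ in composition. The 250 bases before the outermost annotated start of each gene follow, both on the minus strand, at chr1:138175306-138175555 and chr2:90580596-90580845 of GRCm38.p6. Capitals mark matches on either strand to 3 short strings. The first is TATAAA, called the TATA string here. The second is GGGCGG, the GC box. The last is GAGGAAG, an ETS-type string of the kind that the macrophage factor Spi1 binds.
Ptprc: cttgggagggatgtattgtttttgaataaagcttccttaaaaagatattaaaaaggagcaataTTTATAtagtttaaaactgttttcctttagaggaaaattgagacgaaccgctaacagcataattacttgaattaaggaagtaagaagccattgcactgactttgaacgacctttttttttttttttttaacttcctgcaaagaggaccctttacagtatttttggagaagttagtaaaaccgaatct
Ptprj: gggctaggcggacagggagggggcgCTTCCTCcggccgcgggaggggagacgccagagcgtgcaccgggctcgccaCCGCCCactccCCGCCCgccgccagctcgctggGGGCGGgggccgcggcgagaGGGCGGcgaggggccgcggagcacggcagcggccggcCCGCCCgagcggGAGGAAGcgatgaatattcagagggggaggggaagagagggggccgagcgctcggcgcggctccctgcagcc
The Ptprc stretch was 31.6% G and C and held 4 CG dinucleotides, whereas the Ptprj stretch was 79.2% G and C and held 34. Over 32851 stretches of this length the median was 52.4% and 6 CG dinucleotides, and 3.53% held as many CG dinucleotides as Ptprj or more. Of the same stretches, 37.8% held fewer CG dinucleotides than Ptprc. These stretches lie before all starts of the RefSeq list used, inner starts included, and not only before the outermost. In the Ptprj stretch 5 GC boxes and 2 ETS-type strings were found, and in the Ptprc stretch 1 TATA string, with no overlap between matches. Only these exact letters were searched, so the lack of the ETS-type string at Ptprc does not show that it lacks ETS sites. Of all stretches, 32.7% held a GC box, 10.6% the ETS-type string and 12.4% the TATA string. RefSeq gives each gene 2 starts in this table. The other Ptprc start had 2 CG dinucleotides and none of the strings, and the other Ptprj start had 3 and 1 ETS-type string. Their stretches were 36.8% (Ptprc) and 44.8% (Ptprj) G and C. The large contrast in CG dinucleotides was thus found only before the outermost starts. These positions were not converted to mm9, and no peak was placed on a promoter, exon or intron. The genes span 112.9 kb (Ptprc) and 150.9 kb (Ptprj) on GRCm38.p6, equal to 51.3% of the Ptprc window and 71.9% of the Ptprj window, so both windows include DNA outside the gene.

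At both loci most Kupffer peaks had no endothelial counterpart, while nearly every endothelial peak had a Kupffer counterpart. The Ptprc window held 31 Kupffer peaks, of which 27 were Kupffer-only and 4 shared, and 4 endothelial peaks, all shared. The Ptprj window held 61 Kupffer peaks, of which 51 were Kupffer-only and 10 shared, and 12 endothelial peaks, of which 11 were shared and 1 was endothelial-only. The Kupffer-only part was thus 87.1% of the Kupffer peaks at Ptprc (95% exact binomial interval 70.2% to 96.4%) and 83.6% at Ptprj (71.9% to 91.8%), against 60.9% of all Kupffer peaks. The endothelial-only part was 0 of 4 peaks at Ptprc and 1 of 12 at Ptprj, against 41.7% of all endothelial peaks. The windows were chosen by the number and class of their peaks in these same lists, Ptprj for its Kupffer-only peaks, so the values describe the loci and are no test of them. The intervals treat peaks as independent and cover counting error only.

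**Figure D1:**
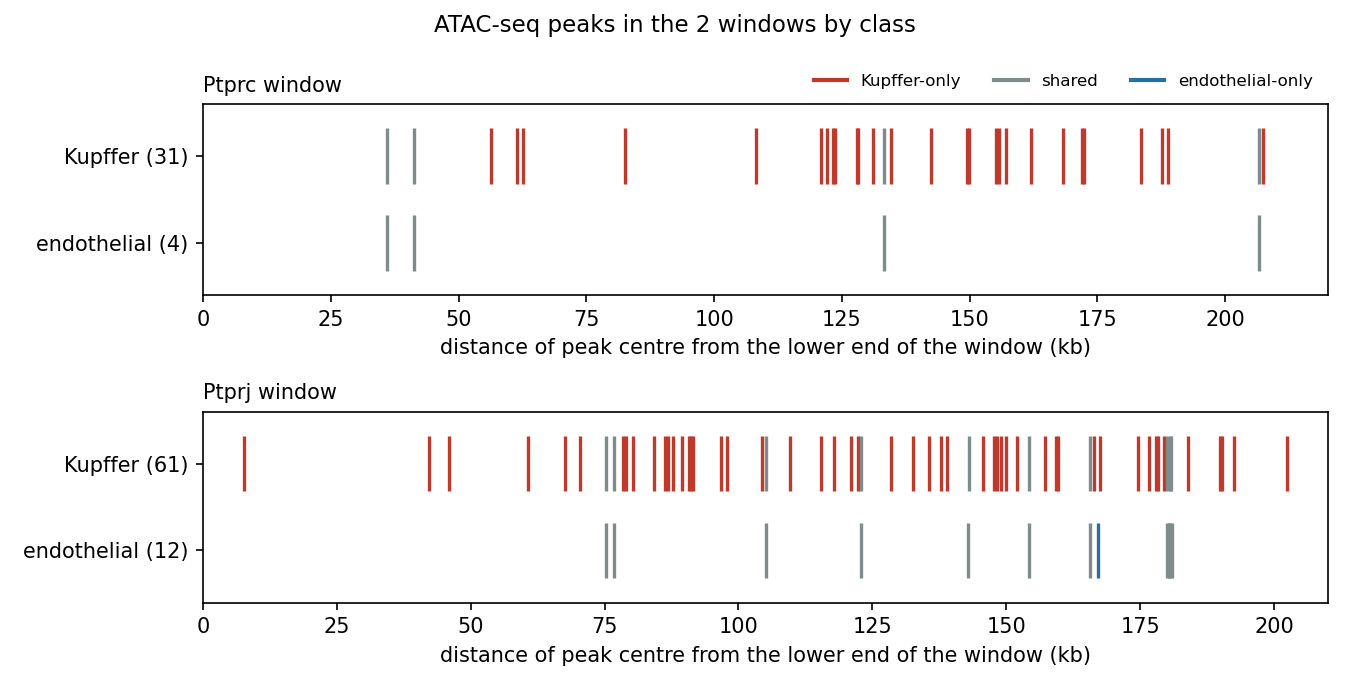
Peaks in the Ptprc window (top) and the Ptprj window (bottom), drawn as ticks at the distance of the peak centre from the lower end of the window in kb, with the Kupffer list above the endothelial list and the number of peaks beside each. Red is Kupffer-only, grey shared and blue endothelial-only. The 4 endothelial peaks at Ptprc span 171 kb, and 4 of the 12 at Ptprj lie within 1.33 kb of each other.

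The loci differed more in the number of peaks than in their class. The Ptprj window was chosen for its Kupffer-only peaks, so its larger number of Kupffer peaks follows in part from that choice. Per 100 kb of window there were 14.1 Kupffer peaks at Ptprc and 29.0 at Ptprj, a ratio of 0.485, and 12.3 and 24.3 Kupffer-only peaks. Endothelial peaks numbered 1.82 per 100 kb at Ptprc and 5.71 at Ptprj. The ratio of Kupffer to endothelial peaks was 7.75 at Ptprc and 5.08 at Ptprj. Kupffer peaks were also the more numerous in the whole series, with 137684 against 91453 endothelial peaks. Over all 200 kb tiles of the genome with at least 1 peak, means per 100 kb were 6.82 Kupffer, 4.16 Kupffer-only and 4.53 endothelial peaks. Kupffer peaks covered 2.69% of the bases of the Ptprc window and endothelial peaks 0.316%. In the Ptprj window Kupffer peaks covered 5.91% of the bases and endothelial peaks 1.17%. The Kupffer-only shares differed by 3.49 percentage points, and each lay inside the counting interval of the other.

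Against 10088 tiles of 200 kb that held at least 1 peak, the Ptprj window stood among the fullest in Kupffer-only peaks, and less far out in endothelial peaks. Scaled to 200 kb, Ptprc had 24.5 Kupffer-only peaks, a number reached by 598 tiles or 5.93%, and Ptprj had 48.6, reached by 3 tiles. The median tile had 6 Kupffer-only peaks. In endothelial peaks the scaled counts were 3.64 at Ptprc and 11.4 at Ptprj, and 64.0% and 30.8% of tiles had at least as many, the median tile having 6 (quartiles 2 and 14). Among the 598 tiles with as many Kupffer-only peaks as Ptprc the median number of endothelial peaks was 18.5 (quartiles 12 and 26), and 23 of them (3.85%) had as few as Ptprc. Of these 598 tiles 30 (5.02%) held no endothelial-only peak. The median share of Kupffer-only among Kupffer peaks was 70.7% in these tiles, beside 87.1% at Ptprc. In the 3 tiles as dense as Ptprj it was 85.1%, beside 83.6% at Ptprj, and their median number of endothelial peaks was 15. The tiles include the DNA of the windows themselves, and the rank of Ptprj follows from its choice.

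**Figure D2:**
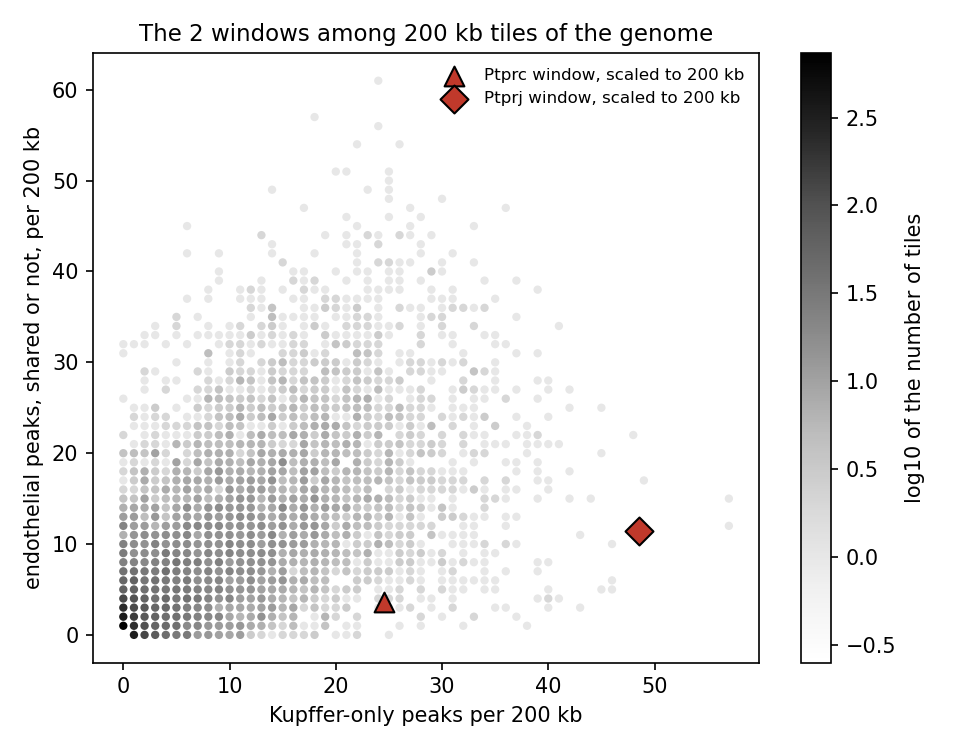
Kupffer-only peaks (horizontal axis) and endothelial peaks, shared or not (vertical axis), per 200 kb. Grey points are the 10088 tiles with at least 1 peak, darker where more tiles coincide (log10 scale), and the red triangle and diamond are the Ptprc and Ptprj windows scaled to 200 kb. Ptprc, at 24.5 and 3.64, lies at the lower edge of the tiles with as many Kupffer-only peaks, and Ptprj, at 48.6 and 11.4, lies near the right end.

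The lists have a smallest common width, called the minimum width below although a few peaks are narrower, which 26.0% of all Kupffer peaks and 34.5% of all endothelial peaks had or fell below. At Ptprc 4 sites were called in both cell types, the lower 2 of them 5.38 kb apart in the endothelial list and the others farther. The lowest was a Kupffer peak on chromosome 1 from 139935859 to 139936009, paired with an endothelial peak of 179 bp whose centre lay 28 bp away. The next pair, with a Kupffer peak of 204 bp from 139941246 to 139941449 and an endothelial peak of 214 bp, had centres 8 bp apart. In the densest part of the window, a Kupffer peak of 223 bp from 140033116 to 140033338 held the whole of an endothelial peak from 140033188 to the same last base. The uppermost pair, with a Kupffer peak from 140106596 to 140106746, had the same width in both lists, with centres 4 bp apart. The centre distances at Ptprc, from 4 to 36 bp with a median of 18 bp, compare with a median of 25 bp over all 54534 overlapping pairs.

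At Ptprj the overlapping pairs were less closely centred, by the median, and the endothelial list gathered at 1 place. The 11 pairs had centres 2 to 141 bp apart, with a median of 73 bp. At that place lie the pair 141 bp apart and a Kupffer peak, from 90420431 to 90420581, that enters 2 of the pairs. The widest Kupffer peak of the locus, 460 bp on chromosome 2 from 90315069 to 90315528, was shared with an endothelial peak of 271 bp, the centres being 98.5 bp apart. A Kupffer peak of 339 bp from 90382897 to 90383235 overlapped an endothelial peak of the minimum width by 110 bp. A Kupffer peak of 218 bp from 90345064 to 90345281 was paired with a wider endothelial peak of 290 bp. In 2 of the 11 pairs the Kupffer peak was the wider one, in 4 the endothelial peak was, and in the other 5 both had the minimum width.

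The place where endothelial peaks gathered, named here after its values were seen, lay between 90419871 and 90421203 on chromosome 2. It held 4 of the 12 endothelial peaks of the Ptprj window in 1333 bp, and 3 Kupffer peaks, all shared. Neighbouring centres of these 4 were 412.5 bp apart or less, so joining peaks within 500 bp makes them 1 peak. Whether they are separate sites was not tested. The widest endothelial peak of the locus was there, 470 bp from 90420734 to 90421203, over a Kupffer peak of 204 bp from 90420726 to 90420929. The Kupffer peak from 90420431 to 90420581, of the minimum width, bridged a pair of endothelial peaks of the same width, which it overlapped by 26 and 58 bp. The remaining shared Kupffer peak, 158 bp from 90419916 to 90420073, lay within an endothelial peak of 196 bp except for its last bases. The 4 endothelial peaks at Ptprc spanned 171 kb, and all 12 at Ptprj spanned 106 kb.

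The only endothelial-only peak of either window was a borderline case. It had the minimum width, on chromosome 2 from 90407114 to 90407264, and 34 bp separated it from a Kupffer-only peak of 323 bp from 90407299 to 90407621, the second widest Kupffer-only peak of the locus. With peaks within 500 bp counted as shared, neither window had an endothelial-only peak. Where sharing required 50% of the bases of both peaks, 5 endothelial peaks at Ptprj were endothelial-only, this one included, and none at Ptprc.

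Kupffer peaks were spaced more closely at Ptprj than at Ptprc, by the medians. Neighbouring Kupffer peak centres lay a median of 3840 bp apart at Ptprc (quartiles 1249 and 6970 bp, 30 spacings) and 2045 bp apart at Ptprj (quartiles 871 and 4019 bp, 60 spacings), against 4034 bp over all Kupffer peaks (quartiles 951 and 11415 bp). The 95% order-statistic intervals of the medians, 1287 to 5414 bp at Ptprc and 1266 to 2881 bp at Ptprj, overlapped. The genome median lay inside the Ptprc interval and above the Ptprj interval. Spacings under 1 kb numbered 6 of 30 at Ptprc and 16 of 60 at Ptprj (26.7%), against 25.8% over all Kupffer peaks. Spacings over 10 kb numbered 6 of 30 at Ptprc and 2 of 60 at Ptprj (3.33%), against 27.8% over all Kupffer peaks. At Ptprj few spacings were long, and the share of short ones was near that of the whole list. The median spacing and the number of long spacings follow in part from the density of Kupffer peaks. The Ptprj window was chosen for its Kupffer-only peaks, so these values describe it and are no separate result.

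Peaks were unevenly placed along both windows. With the Ptprc window divided into 4 equal parts of 55 kb, the lower 2 parts held 2 and 5 Kupffer peaks and the upper 2 held 16 and 8. The shortest stretch with 16 of the 31 Kupffer peaks ran from 140020717 to 140062028, or 41.1 kb between the outer centres, 18.7% of the window. Its 15 Kupffer-only peaks were accompanied by 1 shared site. At Ptprj the 4 parts of 52.5 kb held 3, 19, 21 and 18 Kupffer peaks, and the shortest stretch with 31 of the 61 ran from 90357781 to 90420929, or 63.0 kb, 30.0% of the window. The 10 kb with the most Kupffer peaks held 6 at Ptprc, from 140020717 to 140028174, all Kupffer-only and with no endothelial peak, and an overlapping stretch from 140021998 to 140031195 also held 6. At Ptprj the fullest 10 kb held 9, of which 6 were Kupffer-only, from 90414448 to 90424103, with 4 endothelial peaks.

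Between peaks inside the windows, the longest gaps lay on the lower side of both. At Ptprc the widest spacing between neighbouring Kupffer centres was 25.6 kb, between peaks that began at 139982552 and 140008191, and the next was 19.9 kb, directly below it. At Ptprj the widest was 34.6 kb, between peaks that began at 90247562 and 90282173, followed by 14.6 kb between peaks that began at 90285905 and 90300540. None of these 4 gaps held an endothelial peak. Across the edges of the Ptprc window, neighbouring Kupffer centres were 83.5 kb (lower) and 26.6 kb (upper) apart, both farther than any inside it. At Ptprj they were 12.3 and 10.2 kb apart.

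Shared and endothelial-only peaks broke up the Kupffer-only peaks more often at Ptprj. The number of runs follows in part from the number of such peaks, which is larger there. At Ptprc the 27 Kupffer-only peaks fell into 3 runs with no shared or endothelial-only peak between them. The longest runs had 14 peaks, from 140034421 to 140088931 (54.5 kb), and 12 peaks, from 139956357 to 140031195 (74.8 kb). At Ptprj the 51 fell into 9 runs. The longest of these also had 14 peaks, in 26.1 kb from 90318396 to 90344484, and the next had 6.

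Kupffer-only peaks at Ptprc lay farther from endothelial peaks than those at Ptprj, by the medians. A median of 17.7 kb separated a Kupffer-only peak at Ptprc from the nearest endothelial peak (95% order-statistic interval 9.94 to 23.0 kb, range 0.590 to 41.1 kb, n = 27). At Ptprj the median was 5.10 kb (4.26 to 7.38 kb, range 0.034 to 32.7 kb, n = 51). Over all Kupffer-only peaks it was 4.81 kb, inside the Ptprj interval and below the Ptprc interval. Of the 27 peaks at Ptprc, 8 had an endothelial peak within 10 kb (29.6%, exact binomial interval 13.8% to 50.2%), and of the 51 at Ptprj 40 had one (78.4%, 64.7% to 88.7%), against 68.2% of all Kupffer-only peaks. Within 1 kb the numbers were 1 of 27 (3.70%) and 5 of 51 (9.80%), against 22.5%. Peaks of a locus share their endothelial neighbours, so the intervals are too narrow, and this distance follows in part from the number of endothelial peaks, which is smaller at Ptprc.

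**Figure D3:**
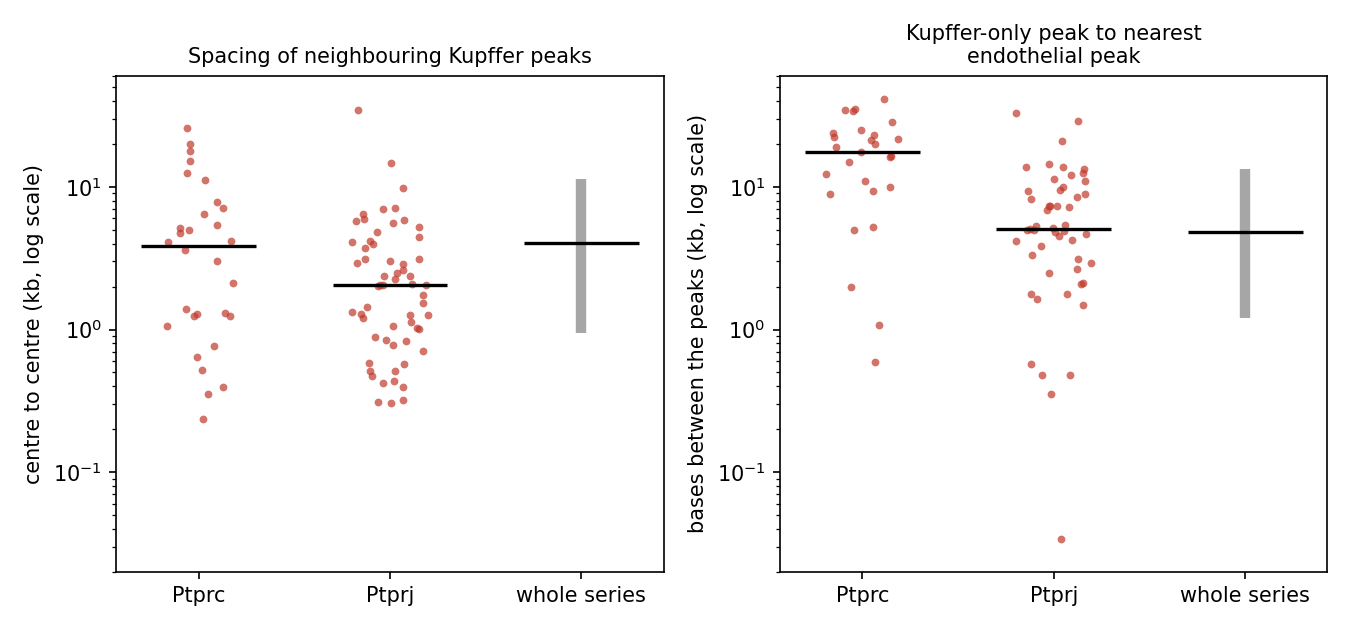
Left, centre-to-centre spacing of neighbouring Kupffer peaks, and right, bases between each Kupffer-only peak and the nearest endothelial peak, both in kb on a log scale, for Ptprc, Ptprj and the whole series. Points are single spacings or peaks, scattered sideways for legibility, black lines are medians, and grey bars run from the lower to the upper quartile of the whole series. The median spacing is 3840 bp at Ptprc and 2045 bp at Ptprj, and the median distance to endothelial peaks is 17.7 kb at Ptprc and 5.10 kb at Ptprj.

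The width of Kupffer-only peaks was nearly the same at both loci. The median was 195 bp at Ptprc (order-statistic interval 161 to 211 bp) and 191 bp at Ptprj (181 to 208 bp), against 194 bp over all Kupffer-only peaks. The 3 widest were wider at Ptprj, but peaks over 250 bp were few and the difference in their share was not tested. At Ptprc the 3 widest were 301 bp (140023534 to 140023834), 238 bp (140055635 to 140055872) and 235 bp (140088697 to 140088931), and 1 of 27 exceeded 250 bp (3.70%). At Ptprj the 3 widest were 340 bp (90385505 to 90385844), 323 bp (90407299 to 90407621) and 294 bp (90429697 to 90429990), and 8 of 51 exceeded 250 bp (15.7%), against 11.6% of all Kupffer-only peaks. The narrowest were tied at the minimum width, with 5 such peaks at Ptprc (18.5%) and 13 at Ptprj (25.5%), against 27.4% of all Kupffer-only peaks.

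Shared Kupffer peaks were not wider than Kupffer-only ones at either locus by their medians, although they were over the whole list. Their median width was 178 bp at Ptprc (n = 4) and 155 bp at Ptprj (n = 10), against 207 bp over all shared Kupffer peaks. The minimum width was found in 2 of the 4 at Ptprc and in 5 of the 10 at Ptprj (50.0%, exact binomial interval 18.7% to 81.3%), against 23.9% of all shared Kupffer peaks, a value inside that interval. The shared endothelial peaks had a median of 165 bp at Ptprc (n = 4) and one at the minimum width at Ptprj (n = 11), against 210 bp over all shared endothelial peaks. With so few peaks these differences from the whole lists were not resolved.

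**Figure D4:**
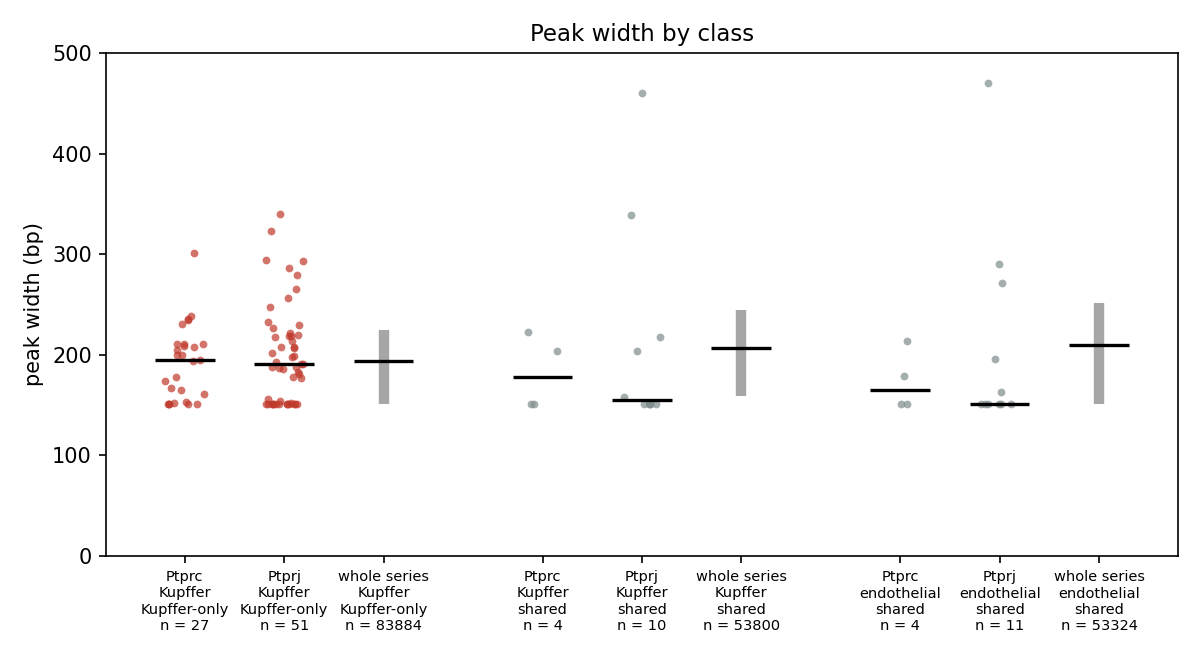
Peak width in bp by class at Ptprc, at Ptprj and in the whole series, for Kupffer-only peaks, shared Kupffer peaks and shared endothelial peaks. Points are single peaks, scattered sideways for legibility, black lines are medians, and grey bars run from the lower to the upper quartile of the whole series. The Kupffer-only medians are 195 bp at Ptprc and 191 bp at Ptprj, and the lowest row of points in each class lies at the smallest common width of the lists.

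By the medians, Kupffer peaks of the minimum width lay farther from their neighbours than wider ones. At Ptprc the 7 Kupffer peaks of the minimum width lay a median of 5006 bp from the nearest other Kupffer peak (range 236 to 19940 bp), and the 24 wider ones 1249 bp (range 236 to 7158 bp), so that the ranges overlapped. At Ptprj the medians were closer, at 1248 bp for 18 peaks of the minimum width and 1019 bp for 43 wider ones. Their ranges, 303 to 12258 bp and 303 to 4463 bp, also overlapped. Over all Kupffer peaks the medians were 1867 and 1185 bp. Between 139955001 and 140010000, the second of the 4 equal parts of the Ptprc window, 4 of 5 Kupffer peaks had the minimum width. Between 140010001 and 140065000, the third part, which holds the dense stretch, 1 of 16 had it, and the median width was 210 bp. How the lists were merged over libraries is not given, so whether the minimum width marks a site seen in few libraries was not tested.

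The edges of the windows cut through no peak. At Ptprc the outermost Kupffer peaks inside lay 35.9 kb from the lower and 12.6 kb from the upper edge, and the first ones outside 47.6 and 14.1 kb beyond them. At Ptprj those inside lay 7.64 and 7.65 kb from the edges, and those outside 4.62 and 2.59 kb beyond them.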

How the data were processed

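The 2 files used are peak lists that the authors deposited, 1 for Kupffer cells and 1 for endothelial cells, each with 3 columns (chromosome, start and end) and no score, count or library of origin. Per the submitters' processing notes, Bowtie, HOMER and the build mm9 were used, without versions. Per the file names the peaks are of nucleosome-free regions. For the peak threshold, transposase offset, fragment selection and merging of libraries, the sources used here give no value. Per the labels' protocols, isolated cells were transposed in a digitonin mixture. The smallest common peak width was 151 bp, called the minimum width.

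Positions are on mm9, counted from 1, and a peak belongs to a window by its centre. Overlaps and medians came from Python 3.11.15 with NumPy 2.4.6, and bedtools 2.31.1 gave identical numbers of shared peaks. Shares carry exact (Clopper-Pearson) 95% intervals from SciPy 1.17.1, and medians carry 95% intervals from binomial ranks. The classing was tested on simulated data with known overlaps and recovered every one. The windows, the genes and the measures were chosen with earlier results of these data known. Named peaks are all endothelial-only peaks, the shared pairs (the 5 with the widest Kupffer peak where over 10), the 3 widest and narrowest Kupffer-only peaks, the 2 longest gaps and the densest 10 kb. The pairs and peaks at the gathering of endothelial peaks are named besides. Promoter bases are from RefSeq (GRCm38.p6). Lists of other phosphatases and of cell type markers were not used, as no annotation of mm9 was at hand, so the labelled cell types were not checked. Alternatives covered the overlap, peak width, joining of close peaks and the window.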

Additional observations from a re-analysis of the deposited data

How the results depend on the processing

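The share of Kupffer peaks that were Kupffer-only stayed within its counting interval at both loci in each of the 8 alternatives run, and Ptprj stayed denser than Ptprc in Kupffer-only peaks in all of them. Of 112 alternative values 96 stayed within an interval or within 1.5 times the count, and 16 moved further. Keeping the wider 50% of each list, which removes peaks by construction, left 14 Kupffer-only peaks at Ptprc and 24 at Ptprj (6.36 and 11.4 per 100 kb), 1 and 3 shared Kupffer peaks, no endothelial-only peak at Ptprj, median spacings of 6664 and 3531 bp, and a median Kupffer-only width of 227.5 bp at Ptprj. Without peaks of the minimum width or less there was 1 shared Kupffer peak at Ptprc and 4 at Ptprj, and 1 endothelial-only peak at Ptprc. That peak, of 179 bp from 139935873, became endothelial-only because its Kupffer partner of the minimum width was dropped. At Ptprj the number stayed 1, but the original peak was dropped. A peak of 163 bp from 90394151 took its place in the same way. Endothelial-only peaks at Ptprj numbered 5 where sharing required 50% of the bases of both peaks, 0 with peaks within 500 bp counted as shared, and 2 with the window widened by 50 kb at both ends. Joining peaks within 500 bp, cutting the window by 20 kb at both ends and taking any overlap with the window moved none of the values beyond these limits. No paired analysis was possible because each list pools all libraries of its cell type, so replicates could be neither paired nor left out. No stricter peak threshold was run, since the lists give no score. Depth is unknown and limits what can be said of any site that was not called.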

Other observations

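Averaged over 200 kb, Kupffer-only peaks were about as dense above the Ptprc window as inside it, although 26.6 kb separated neighbouring Kupffer centres across the upper edge. The 200 kb above it, on chromosome 1 between 140120001 and 140320000, held 29 Kupffer peaks, of which 26 were Kupffer-only, and 5 endothelial peaks, of which 2 were endothelial-only. That is 13.0 Kupffer-only peaks per 100 kb, beside 12.3 in the window. The 200 kb below the window held 17 Kupffer peaks, of which 14 were Kupffer-only, and 3 endothelial peaks, all shared. On GRCm38.p6 the protein-coding neighbours of Ptprc are Nr5a2 on its lower side and Atp6v1g3, a subunit of the vacuolar proton pump, on its upper side.

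Both flanks of the Ptprj window held fewer Kupffer-only peaks per 100 kb than the window, the lower flank fewest of all. That window was chosen for its Kupffer-only peaks. The contrast, and its being sharper than at Ptprc, therefore follow at least in part from the choice. The 200 kb below the window, on chromosome 2 between 90040001 and 90240000, held 1 Kupffer peak and 1 endothelial peak, which overlapped. On GRCm38.p6 the next protein-coding gene on that side is the olfactory receptor gene Olfr1274. The 200 kb above the window held 23 Kupffer peaks, of which 17 were Kupffer-only (8.50 per 100 kb, beside 24.3 in the window), and 7 endothelial peaks, of which 1 was endothelial-only. The gene placement comes from the order of genes on GRCm38.p6 and was not checked on mm9.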
